A study of Arabidopsis thaliana with 6 samples.

Results

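Genes for the proteins of the cytosolic ribosome were followed in roots of Arabidopsis thaliana. They were taken by name, as the rows of the expression tables that carry a nuclear gene identifier and a symbol of RPL (large subunit) or RPS (small subunit), a protein number and a paralogue letter. This gave 217 of the 33557 genes in each table. Their product and annotation names showed that 212 encode cytosolic ribosomal proteins, and that 5 encode plastid-type proteins with symbols of the same form: RPL12A (AT3G27830), RPL12B (AT3G27840), RPL12C (AT3G27850), RPL3A (AT2G43030) and RPL3B (AT3G17465). The 217 genes carried 188 distinct symbols, and 49 of them shared a symbol with another member, so each is given with its gene identifier. A few cytosolic ribosomal protein genes with names of another form, such as ATL5 and ARP1, are outside the set.

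CEPDL2 is a short glutaredoxin-like polypeptide that moves from shoots to roots and raises nitrate uptake there. The study sequenced RNA from roots of 10-day-old plants on medium with 10 mM nitrate as the only nitrogen source, in 3 libraries of CEPDL2ox plants (35S:CEPDL2, in the Col ecotype) and 3 libraries of WT (Col) plants. The 35S promoter is active in most tissues, so that the roots themselves made CEPDL2 transcript, and the number of transgenic lines behind the 3 CEPDL2ox libraries was not given in the sources used here. Values are FPKM (read numbers divided by transcript length and by the mapped reads of the library), and a fold change is CEPDL2ox over WT on the scale of log2(FPKM + 1).

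The libraries matched their labels. CEPDL2 stood at 7948, 8838 and 8337 FPKM in CEPDL2ox and at 3.27, 5.78 and 9.45 FPKM in WT. The size of the steps between low values put the depth at about 5132000 to 5534000 reads in CEPDL2ox and 5870000 to 6271000 in WT. For this, 200 bases were taken off each transcript length, as an assumed offset. With it, 1 FPKM on a transcript of 1 kb stood for 4.11 to 4.43 reads in CEPDL2ox and 4.70 to 5.02 reads in WT. All 7 root markers were detected in every library and were above 0 in log2 fold change, 2 of them without overlap. EXPA7 (AT1G12560), an expansin of root hair cells, was called higher in CEPDL2ox (log2 fold change 0.44, adjusted p = 0.0265, limma), a call that was kept in 1 of 6 fits with a library left out (adjusted p up to 0.103). Of 7 dividing-cell markers none passed the test (limma), 1 was lower at an unadjusted p under 0.05 (CDKB2;1, AT1G76540, log2 fold change -0.30), 6 were below 0 and 2 of these did not overlap. The 10 marker genes of green tissue were all highest in WT replicate 1, with a sum of 218 to 453 FPKM in CEPDL2ox and of 553, 452 and 3869 FPKM in WT replicates 2, 3 and 1. All 10 were below 0, with a median log2 fold change of -1.71, and of -0.41 without WT replicate 1. None of the 10 was called (limma), 2 were lower at an unadjusted p under 0.05 and 3 were lower without overlap. Among all genes 11.8% were lower at that p, and 16.1% were lower and 13.8% higher without overlap.

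A cytosolic ribosome joins a large subunit, which makes the peptide bonds, to a small subunit, which reads the mRNA. Each subunit needs its proteins in near-equal amounts, and in Arabidopsis nearly every one is encoded by several paralogous genes. These genes are among the most highly expressed in growing root tips, and their transcription rises with cell growth and with the activity of the TOR kinase. Many of their promoters carry a telo box (AAACCCTA) and site II elements (TGGGCC or TGGGCT), which are bound by factors such as TCP20 and the telomere-repeat binding TRB proteins.

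Both elements were common in front of the cytosolic members. In the 250 bases before the annotated start of each gene (RefSeq annotation, TAIR10.1 assembly, either strand), the telo box was found in 48 of 212 members (22.6%) and in 4.49% of all 27443 protein-coding genes. A site II element was found in 145 of 212 members (68.4%), against 19.2% of all, and both together in 17.9% against 1.36%. The 3 sequences below show how the elements are placed in members that have several, with every match in capitals. They are the promoters of RPL41E (AT2G40205), the member with the highest level, of RPS9B (AT5G15200), which has a telo box and 4 site II matches, and of RPL4A (AT3G09630), which was lower in CEPDL2ox. None of the matches shown shares a base with another. None of these windows overlaps another annotated gene.
RPL41E (AT2G40205), chr2:16792623-16792872, minus strand: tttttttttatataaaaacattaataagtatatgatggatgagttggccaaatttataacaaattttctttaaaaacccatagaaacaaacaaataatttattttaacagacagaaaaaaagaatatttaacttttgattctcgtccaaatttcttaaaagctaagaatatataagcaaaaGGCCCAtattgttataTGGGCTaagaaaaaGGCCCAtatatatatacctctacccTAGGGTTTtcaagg
RPS9B (AT5G15200), chr5:4936430-4936679, minus strand: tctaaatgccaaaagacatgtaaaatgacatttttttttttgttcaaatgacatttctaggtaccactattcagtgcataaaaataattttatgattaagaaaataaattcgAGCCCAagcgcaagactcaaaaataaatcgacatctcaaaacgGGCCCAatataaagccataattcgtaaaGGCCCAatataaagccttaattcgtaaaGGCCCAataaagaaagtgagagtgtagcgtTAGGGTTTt
RPL4A (AT3G09630), chr3:2953443-2953692, plus strand: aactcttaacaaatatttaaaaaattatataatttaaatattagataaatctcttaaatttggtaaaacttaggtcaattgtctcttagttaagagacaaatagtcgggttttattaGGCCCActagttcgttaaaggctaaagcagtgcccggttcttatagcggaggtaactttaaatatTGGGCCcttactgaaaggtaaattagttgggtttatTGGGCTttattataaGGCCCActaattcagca
No test was run on the elements. The median log2 fold change was -0.055 in the 42 tested cytosolic members with a telo box and -0.069 in the 159 without, and -0.060 in the 138 with a site II element and -0.079 in the 63 without.

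Ribosomal protein transcripts made up a large part of the root RNA in both genotypes. The 212 cytosolic members together took 11.7, 12.4 and 12.9% of the summed FPKM in CEPDL2ox and 13.6, 12.1 and 14.2% in WT, so that the groups overlapped. One very abundant transcript weighs on this share, since MT1A, a metallothionein gene, stood at 126178 to 160177 FPKM in CEPDL2ox and 85674 to 95108 FPKM in WT. Without MT1A and CEPDL2 the members' share was 13.5, 14.5 and 14.7% in CEPDL2ox and 14.9, 13.2 and 15.7% in WT. As whole roots were sequenced, fewer cells of a type and less RNA per cell cannot be told apart.

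The 212 cytosolic members formed 74 families, each the genes for 1 protein (43 of the large and 31 of the small subunit). A family name leaves out the paralogue letter, so that RPL7A and RPL23A as families are proteins of their own. Summed over its paralogues, most families ran at a similar level. A sum between 1000 and 2500 FPKM was reached by 65 families in CEPDL2ox and 66 in WT, with a median of 1619 FPKM in CEPDL2ox and 1707 FPKM in WT. The clear exception was RPL41, which encodes the shortest ribosomal protein (a coding sequence of 78 bases), with 10459, 15584 and 11973 FPKM in CEPDL2ox and 11607, 9000 and 13063 FPKM in WT. Its 5 transcripts are 246 to 522 bases long, and FPKM divides by that length. At the low end stood RPL5, of which the naming rule held 1 gene only (RPL5B, AT5G39740), at 608 ± 31.9 FPKM in CEPDL2ox and 717 ± 42.0 FPKM in WT (SD, n = 3 each).

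**Figure D1:**
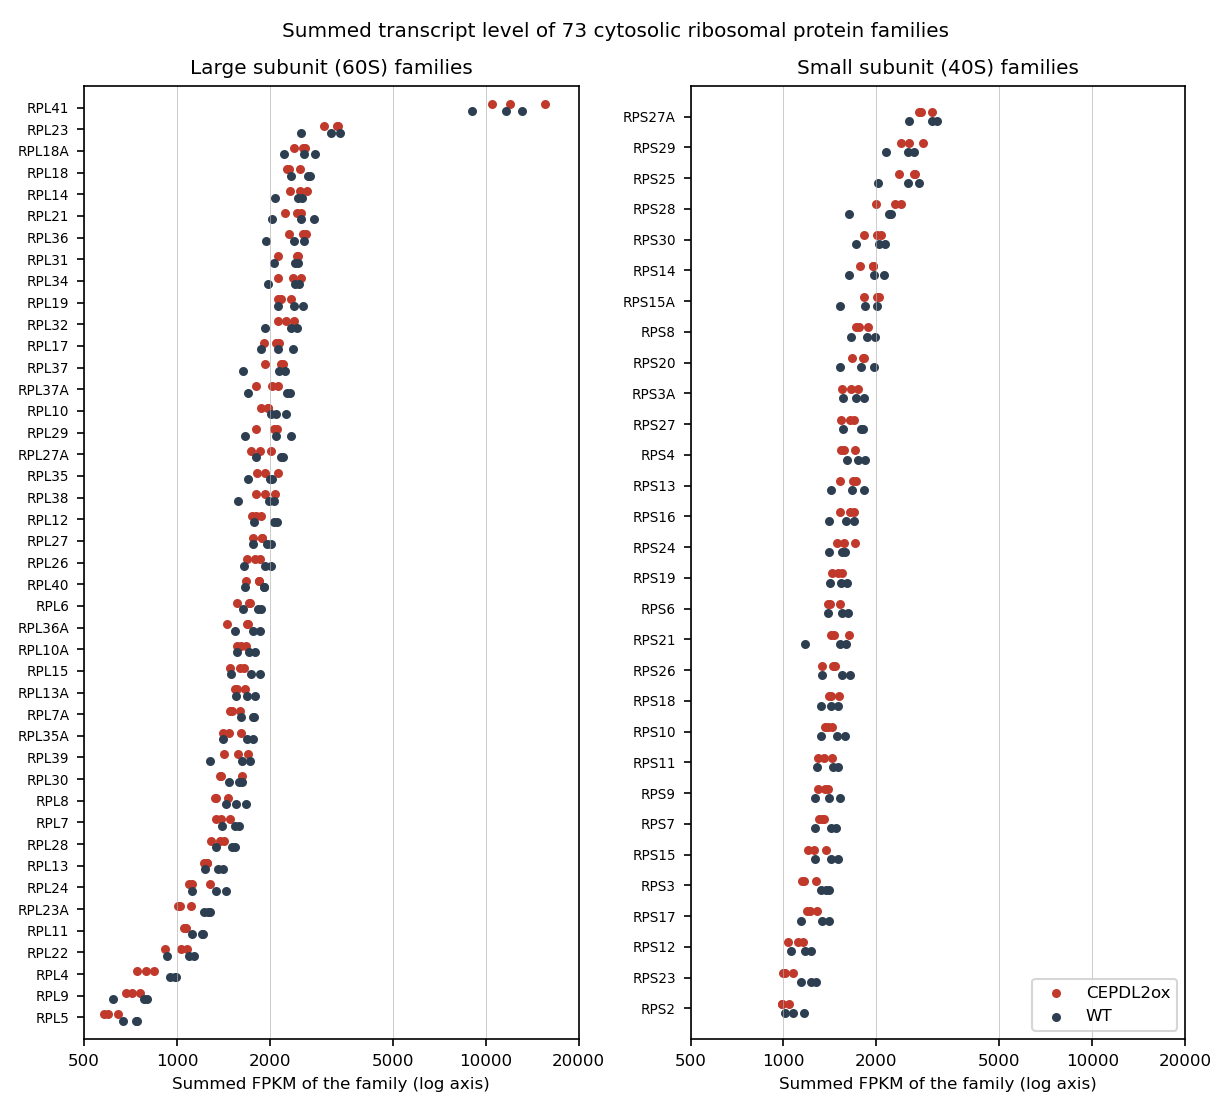
Summed FPKM of 73 of the 74 cytosolic families (log axis), with 1 point per library, red for the 3 CEPDL2ox and dark for the 3 WT libraries, the CEPDL2ox points drawn above the WT points. Most families lie between 1000 and 2500 FPKM, RPL41 lies far above, and the 2 genotypes overlap in most rows.

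Within a family 1 gene often dominated. The most abundant paralogue held over 50% of the family's FPKM in 55 of the 73 families with several genes in the set and over 90% in 4. RPS23B (AT5G02960) made up 99.6% of the RPS23 transcripts, whereas in the RPS3 family the leading gene, RPS3B (AT3G53870), held 36.7%. The 5 members of highest mean FPKM were 2 of the 5 RPL41E loci (AT2G40205 and AT1G56045), RPL14B (AT4G27090), RPL37AC (AT3G60245) and RPL23C (AT3G04400), with adjusted p between 0.595 and 0.899 in limma.

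At the other end, 12 members were under the level of 1 FPKM (mean over the 6 libraries) needed for the test. They were listed at 0 in every library, except RPL8B (AT3G51190), for which about 1 read was seen in 1 library of each genotype (0.312 FPKM in CEPDL2ox replicate 2 and 0.292 FPKM in WT replicate 3). The other 11 were RPL12B (AT3G27840), RPL13C (AT3G48960), RPL22A (AT1G02830), RPL27AA (AT1G12960), RPL30A (AT1G36240), RPL37AB (AT3G10950), RPS15AC (AT2G39590), RPS15B (AT5G09490) and the RPS2B loci AT1G58684, AT1G58983 and AT1G59359. The 3 RPS2B transcripts share all of their 75-base windows with one another, so that reads of this length cannot place them, and their 0 says nothing of transcription. That left 205 members for the test, 201 of them cytosolic.

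As a whole, the set was hardly lower in CEPDL2ox. The median log2 fold change of the 201 cytosolic members was -0.065, against -0.027 for all 19597 genes tested, with -0.069 for the 113 large-subunit and -0.053 for the 88 small-subunit genes. The fold changes were narrow, with 91.5% of the cytosolic members within 0.25 of 0 on the log2 scale, against 65.7% of all genes. They tended to one side: 132 of 201 (65.7%) were below 0, where the share among all genes was 54.5%.

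The spread among replicates of one genotype was larger than this shift. Relative to each gene's mean over the 6 libraries, the median cytosolic member stood at -0.11, 0.0025 and 0.030 in CEPDL2ox and at 0.072, -0.13 and 0.14 in WT (log2), which gives -0.026 ± 0.074 in CEPDL2ox and 0.029 ± 0.14 in WT (SD, n = 3 each). The lowest and the highest library were both WT. Leaving out WT replicate 2 took the median log2 fold change of the cytosolic members to -0.14, leaving out WT replicate 3 took it to -0.0027, and leaving out CEPDL2ox replicate 1 or WT replicate 1 gave -0.020 or -0.039, so that its size rests on single libraries.

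The members moved together from library to library. Among the WT libraries, replicate 2 was the lowest for 185 of the 201 cytosolic members (92.0%) and replicate 3 the highest for 166 (82.6%), while among all genes tested these shares were 35.4% and 34.9%. Among the CEPDL2ox libraries, replicate 1 was the lowest for 153 members (76.1%), against 27.8% of all genes. Of the 1582 further genes with at least 100 FPKM, WT replicate 2 was the lowest of its group for 42.6% and CEPDL2ox replicate 1 for 27.9%. The order was not confined to the members. The median of 12 genes for the stalk P proteins of the ribosome had it too, at -0.12, -0.055 and 0.043 in CEPDL2ox and 0.099, -0.14 and 0.15 in WT. The 378 further genes with transcripts of up to 904 bases had it in part, with their lowest median in WT replicate 2 (-0.15). Their highest medians were in CEPDL2ox replicate 2 (0.14) and, among WT, in replicate 1 (-0.0053), with -0.024 in WT replicate 3.

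**Figure D2:**
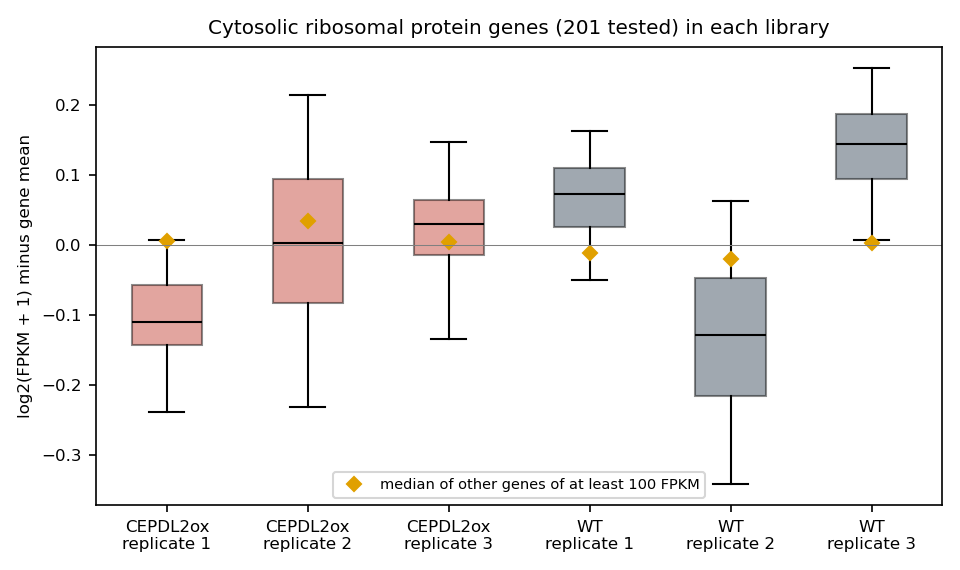
Level of the 201 tested cytosolic members in each library, as log2(FPKM + 1) minus the 6-library mean of that gene, for CEPDL2ox (red) and WT (grey). Boxes span the quartiles with the median as a line, whiskers the 5th to 95th percentile, and diamonds give the median of other genes of at least 100 FPKM. WT replicates 2 and 3 are the extremes at -0.13 and 0.14.

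Gene by gene, 4 of the 205 tested members were lower in CEPDL2ox at an adjusted p under 0.05 (limma, Benjamini-Hochberg over all genes), and none was higher. Among all genes 2.0% were called lower and 3.71% higher, so that the share called lower (1.95%) was at the background. No member was past the study's further limit of 1 on the log2 scale, which 0.424% of all genes passed downwards and 1.16% upwards. At an unadjusted p under 0.05, 24 of the 201 cytosolic members were lower, close to the 11.8% of all genes, and 1 was higher, against 11.4% of all genes. The groups did not overlap for 31 cytosolic members that were lower (15.4%), against 16.1% of all genes, and for 3 that were higher (1.49%), against 13.8%.

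**Figure D3:**
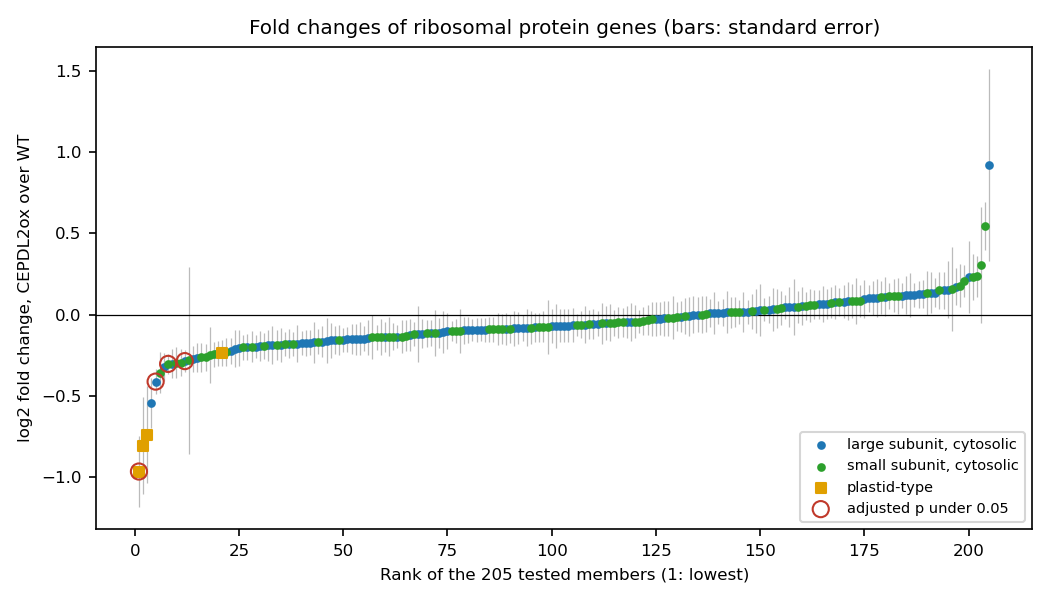
Log2 fold change (CEPDL2ox over WT) of the 205 tested members in rank order, with standard errors as grey bars, large-subunit genes in blue, small-subunit genes in green, plastid-type genes as squares and the 4 genes with an adjusted p under 0.05 circled. Of the 205, 185 lie within 0.25 of 0, and 3 of the 4 plastid-type genes are the lowest of all.

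RPL23AB (AT3G55280, chromosome 3, 20500335 to 20501709) was the lowest of the cytosolic members that passed. Its protein lies at the exit of the peptide tunnel on the large subunit, where the signal recognition particle docks. It stood at 274, 283 and 311 FPKM in CEPDL2ox, against 364, 386 and 405 FPKM in WT. Each CEPDL2ox library was below each WT library, with a log2 fold change of -0.41 ± 0.078 (SE) and an adjusted p of 0.0258 (limma). Its paralogue RPL23AA (AT2G39460) makes most of the family's transcript and averaged 758 ± 40.3 FPKM in CEPDL2ox and 868 ± 31.3 FPKM in WT (SD, n = 3 each), a log2 difference of -0.20 that did not pass (adjusted p = 0.163, limma). RPL23AB accordingly held 27.6 ± 0.734% of the family in CEPDL2ox and 30.7 ± 1.62% in WT, without overlap (two-sided exact permutation p = 0.10, which is the lowest value possible with 3 libraries on each side).

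RPL4A (AT3G09630, chromosome 3, 2953737 to 2955748) and RPL4D (AT5G02870) encode the protein whose long loop lines the peptide tunnel. RPL4A stood at 413, 404 and 438 FPKM in CEPDL2ox, against 513, 502 and 515 FPKM in WT, with a log2 fold change of -0.29 ± 0.066 (SE, adjusted p = 0.0482, limma). RPL4D was as far below WT, at 379, 338 and 407 FPKM in CEPDL2ox and 476, 448 and 476 FPKM in WT, but varied more and did not pass (log2 fold change -0.32 ± 0.085, SE, adjusted p = 0.0715, limma). As the 2 paralogues differed alike, RPL4 had the lowest ratio of all 74 family sums, with 793 ± 51.8 FPKM in CEPDL2ox and 977 ± 23.2 FPKM in WT (SD, n = 3 each), a log2 ratio of -0.30.

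The calls of these genes were mostly not kept when a library was left out. RPL4A lost its call whichever of the 6 libraries was left out (log2 fold changes of -0.32 to -0.26, adjusted p 0.0782 to 0.155, limma). RPL23AB kept it only without CEPDL2ox replicate 3 (log2 fold changes of -0.46 to -0.37 over the 6, adjusted p up to 0.107, limma). In these fits 0.505 to 0.898% of all genes were called lower, against 2.0% with all 6 libraries, so that calls were lost among all genes too. The count was 10 members called lower, where 1.92% of all genes were, once a trend of the values with transcript length was removed in each library, an alternative chosen after seeing the data.

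**Figure D4:**
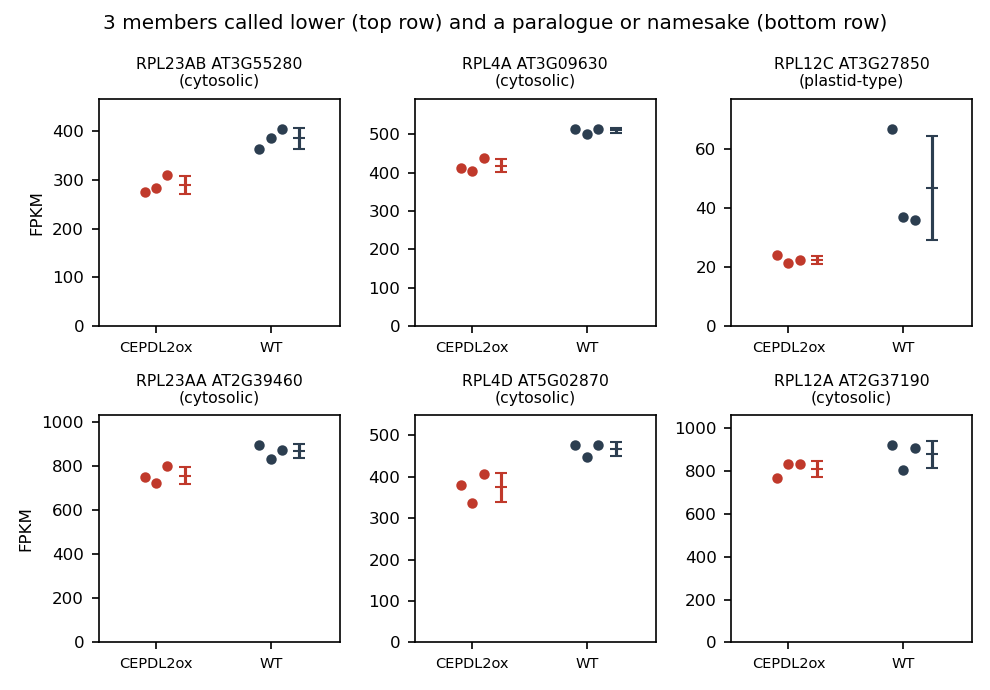
FPKM in each library, with CEPDL2ox (red) left of WT (dark), points for the 3 libraries and a bar for the mean with its SD. The upper row has 3 of the 4 members called lower (RPL23AB, RPL4A and the plastid-type RPL12C), and the lower row a paralogue of each, or for RPL12C the cytosolic gene RPL12A (AT2G37190) that has a like symbol. In the upper row no CEPDL2ox point reaches a WT point, and RPL12C is highest in WT replicate 1 at 67.0 FPKM.

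Of the plastid-type members, RPL12C (AT3G27850, chromosome 3, 10324839 to 10325713) was called lower. It encodes the stalk protein of the plastid ribosome, which recruits the elongation factors there. It stood at 23.9, 21.3 and 22.2 FPKM in CEPDL2ox, against 67.0, 37.1 and 36.1 FPKM in WT, with a log2 fold change of -0.97 ± 0.22 (SE, adjusted p = 0.0461, limma). The WT values spread widely and replicate 1 was the highest, as it was for RPL12A (AT3G27830), at 20.9, 18.2 and 19.3 FPKM in CEPDL2ox and 59.1, 31.8 and 22.2 FPKM in WT, and for RPL3A (AT2G43030), at 22.5, 25.8 and 19.0 FPKM in CEPDL2ox and 62.3, 35.3 and 24.4 FPKM in WT. RPL3B (AT3G17465) did not have this order among WT libraries, at 72.6, 71.5 and 72.6 FPKM in CEPDL2ox and 85.1, 78.6 and 92.5 FPKM in WT (log2 fold change -0.24, adjusted p = 0.130, limma). WT replicate 1 was also the library in which the 10 green-tissue markers were highest, and in which LHCB1.1 (AT1G29920) reached 73.3 FPKM while it was listed at 0 in the 5 other libraries. The part of green tissue in these values was not tested. Without WT replicate 1 the log2 fold change of RPL12C was -0.68 with an adjusted p of 0.0232 (limma, 0.0232 to 0.143 over all alternatives), and leaving out any other library ended the call. It was past both limits with the trend with transcript length removed (log2 fold change -1.02, adjusted p = 0.0394, limma), an alternative chosen after seeing the data. RPL12A and RPL12C share 19.6 and 20.7% of their 75-base windows with each other.

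The cytosolic gene that also carries the symbol RPL12A (AT2G37190, named after its values were seen) had a far higher level, at 767, 832 and 832 FPKM in CEPDL2ox and 920, 806 and 908 FPKM in WT. Its groups overlapped, and its log2 fold change was -0.11 (adjusted p = 0.445, limma).

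The remaining genes among the 10 lowest were cytosolic and did not pass. RPL27A (AT2G32220), the minor paralogue of the RPL27 family with 1.12 ± 0.221% of its transcripts in CEPDL2ox and 1.59 ± 0.108% in WT (SD, n = 3 each), stood at 16.2, 20.7 and 25.6 FPKM in CEPDL2ox and 32.7, 28.8 and 29.5 FPKM in WT (log2 fold change -0.54, adjusted p = 0.0876, limma). Its abundant paralogues RPL27B (AT3G22230) and RPL27C (AT4G15000) had log2 fold changes of 0.0082 and -0.082. RPS2D (AT3G57490), likewise a minor gene, had a log2 fold change of -0.36, against -0.13 for RPS2A (AT1G58380) and -0.091 for RPS2C (AT2G41840). RPL11B (AT5G45775) had -0.30, while its paralogues RPL11A (AT2G42740) and the RPL11B loci AT3G58700 and AT4G18730 had 0.046, 0.012 and -0.14. In the RPS3 family, whose protein borders the entry of the mRNA channel, all 3 genes were below 0, with -0.30 for RPS3A (AT2G31610), -0.20 for RPS3B (AT3G53870) and -0.10 for RPS3C (AT5G35530). These are fitted values of genes that did not pass the test.

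At the level of families, the CEPDL2ox and WT sums did not overlap in 9 of 74 (12.2%), all of them lower, and 52 of 74 ratios (70.3%) were below 0. Of all single genes tested, 16.1% were lower without overlap, so that the count of 9 was not above that share. Among the 9, RPL4, RPL23A, RPS23, RPL5, RPS3, RPL7A, RPL11 and RPL10 had log2 ratios of -0.30 to -0.13. RPL5 and RPL11 are the proteins that carry the 5S ribosomal RNA into the large subunit. The RPL5 sum is that of 1 gene, and the RPL11 paralogues were not all below 0 in log2 fold change. No family test was run. Among the families named here with several genes, the most abundant gene held from 36.7% (RPS3) to 99.6% (RPS23) of the sum.

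None of the 6 highest fold changes passed. RPL41E (AT3G08520) stood at 1170, 2543 and 419 FPKM in CEPDL2ox and 364, 686 and 732 FPKM in WT. Its log2 fold change of 0.92 had a standard error of 0.59, and the groups overlapped. The transcript is 246 bases long, and the other RPL41E loci among the members named here differed less (0.23 for AT3G56020, 0.15 for AT1G56045 and 0.047 for AT2G40205).

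RPS23A (AT3G09680), the rare paralogue for a protein of the decoding centre, stood at 6.30, 5.53 and 6.35 FPKM in CEPDL2ox, against 4.41, 3.81 and 3.33 FPKM in WT. The groups did not overlap, and the log2 fold change was 0.55 (adjusted p = 0.0736, limma). These values rest on about 16, 14 and 15 reads in CEPDL2ox and 12, 11 and 9 reads in WT. Its dominant partner RPS23B (AT5G02960) went the other way, at 1022 ± 39.7 FPKM in CEPDL2ox and 1212 ± 67.4 FPKM in WT (SD, n = 3 each), with a log2 fold change of -0.25 (adjusted p = 0.109, limma). RPS23A held 0.590 ± 0.0423% of the pair in CEPDL2ox and 0.318 ± 0.0513% in WT. RPS15F (AT5G63070), RPS15AA (AT1G07770) and RPS28A (AT5G03850) had log2 fold changes of 0.30, 0.23 and 0.23, with adjusted p between 0.307 and 0.652 (limma) and overlapping groups. RPS15F was close to the level of 1 FPKM needed for the test. It held 0.139 ± 0.0821% of the RPS15 family in CEPDL2ox and 0.0841 ± 0.0394% in WT (SD, n = 3 each).

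The genes around the ribosome were taken from lists of known factors. Among all genes, 2.0% were called lower and 3.71% higher, and 11.8% were lower at an unadjusted p under 0.05 (limma). The acidic P proteins form the stalk of the large subunit, and 1 of 12 tested was called lower, RPP0C (AT3G11250), at 52.1 ± 3.11 FPKM in CEPDL2ox and 65.8 ± 2.30 FPKM in WT (log2 fold change -0.33, adjusted p = 0.0478, limma, SD, n = 3 each). RPP0C was not called without any single one of the libraries (adjusted p 0.0653 to 0.141, limma). The major gene for the same protein, RPP0B (AT3G09200), had a log2 fold change of -0.096. The median of the 12 was -0.083.

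Ribosome biogenesis factors process the ribosomal RNA and assemble the subunits in the nucleolus. Of 34 tested, 4 were called lower and none higher, against 2.0% and 3.71% of all genes. At an unadjusted p under 0.05, 18 were lower and 0 higher, against 11.8% and 11.4% of all genes (limma). In log2 fold change 32 were below 0, and their median was -0.24, against -0.027 for all genes. The groups did not overlap for 18 of the 34, all lower, where the share among all genes was 16.1%. ENP1 (AT1G31660), needed for small-subunit assembly, stood at 22.5, 23.0 and 24.3 FPKM in CEPDL2ox and 34.6, 32.9 and 32.1 FPKM in WT (log2 fold change -0.50, adjusted p = 0.0142, limma). The others called were SWA2 (AT1G72440, -0.43), CBF5 (AT3G57150, -0.34), the pseudouridine synthase of the nucleolus, and NOP58B (AT3G05060, -0.34), a core protein of the box C/D particles that guide methylation. Leaving out WT replicate 1, CEPDL2ox replicate 1 or CEPDL2ox replicate 2 ended the call of ENP1 (adjusted p up to 0.0688, limma), and leaving out any one library ended those of the other 3 (0.0517 to 0.150). The nucleolin gene NUC1 (AT1G48920) stood just outside, at 232 ± 18 FPKM in CEPDL2ox and 294 ± 14.6 FPKM in WT (log2 fold change -0.34, adjusted p = 0.0524, limma, SD, n = 3 each). In the median biogenesis gene all 3 CEPDL2ox libraries were below all 3 WT libraries, at -0.15, -0.19 and -0.052 in CEPDL2ox and 0.076, 0.12 and 0.17 in WT relative to the gene's mean (log2), which the median cytosolic ribosomal protein gene did not show. The median of the 7 dividing-cell markers was likewise below WT in each CEPDL2ox library, at -0.066, -0.13 and -0.067 in CEPDL2ox and 0.095, 0.083 and 0.064 in WT, and the part of dividing cells in the biogenesis values was not tested.

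Of 29 translation factors and RACK1 genes, 2 were called lower and 1 higher (limma), against 2.0% and 3.71% of all genes. At an unadjusted p under 0.05, 11 were lower and 2 higher, against 11.8% and 11.4% of all genes. The groups did not overlap for 13 that were lower, where the share among all genes was 16.1%, and for 5 that were higher, where it was 13.8%. The median was -0.10, with 19 of 29 below 0. The elongation factor EF2 (AT1G56070) stood at 415 ± 22.7 FPKM in CEPDL2ox and 521 ± 20.6 FPKM in WT (log2 fold change -0.33, adjusted p = 0.0435, limma, SD, n = 3 each), and RACK1B (AT1G48630), a scaffold on the small subunit, had a log2 fold change of -0.38 (adjusted p = 0.0341, limma). ELF5A-3 (AT1G69410), one of 3 genes for the hypusine-containing factor eIF5A, was higher, at 272, 299 and 251 FPKM in CEPDL2ox, against 198, 168 and 180 FPKM in WT (log2 fold change 0.59, adjusted p = 0.0140, limma). Its paralogues ELF5A-1 (AT1G13950) and ELF5A-2 (AT1G26630) had log2 fold changes of 0.27 and 0.018 and did not pass. When each library was left out, EF2 was called in 0, RACK1B in 1 (without WT replicate 2) and ELF5A-3 in 3 of 6 fits, those without WT replicate 1, WT replicate 2 or CEPDL2ox replicate 3, with adjusted p up to 0.127, 0.109 and 0.0695 in the others (limma).

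None of 17 genes for TOR, its partners and factors tied to ribosomal protein transcription was called in limma (1 at an unadjusted p under 0.05, lower), and their median was 0.063. TOR itself (AT1G50030) averaged 9.33 ± 0.429 FPKM in CEPDL2ox and 10.4 ± 0.759 FPKM in WT (SD, n = 3 each), and the nearest to the limit was EBP1 (AT3G51800), with a log2 fold change of -0.28 (adjusted p = 0.0724, limma).

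The nuclear genes for ribosomal proteins of the organelles, listed by their annotation, differed from one another. Of 23 genes listed for the plastid ribosome none was called in limma. At an unadjusted p under 0.05, 15 were lower, where the share among all genes was 11.8%. The groups did not overlap for 15, all lower, where that share was 16.1%. All 23 were below 0 in log2 fold change (median -0.50) and all 23 were highest in WT replicate 1. Without that library the median was -0.29. The list rests on annotation text alone, and whether RPS2 (AT3G03600) belongs to the plastid ribosome is in doubt. It was nearly level among the WT replicates, at 54.1, 51.5 and 53.5 FPKM. RPS2 is counted among the 23 and in both counts of 15. The median of 10 genes of the mitochondrial ribosome was 0.11, with none called and 1 lower at an unadjusted p under 0.05. In WT replicate 1 the 10 green-tissue markers also had their highest values, as given above, and their part in the plastid values was not tested.

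**Figure D5:**
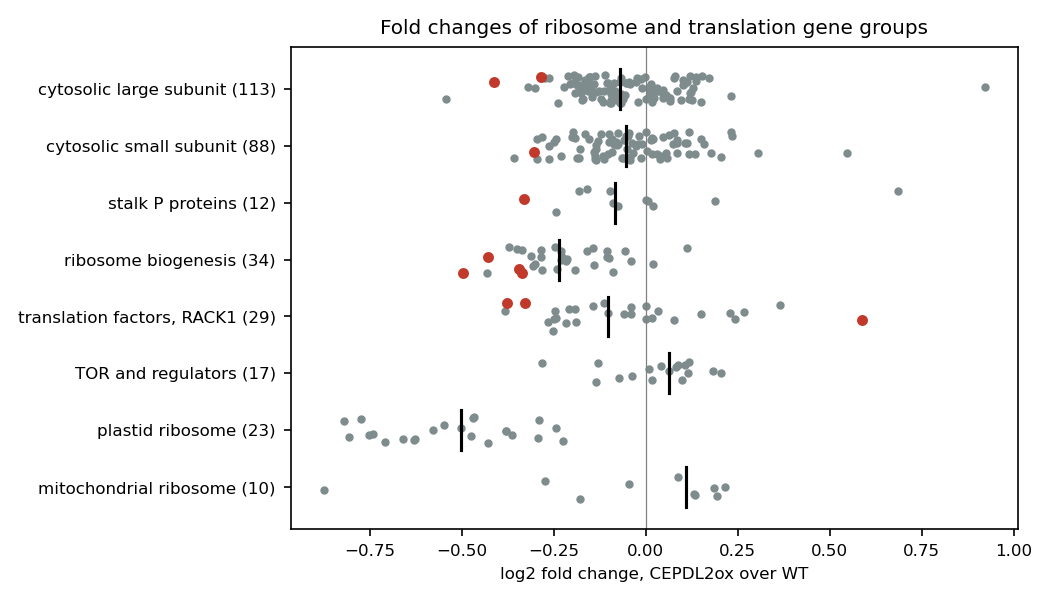
Log2 fold change (CEPDL2ox over WT) of each tested gene in the 2 cytosolic subunits and in the lists around them, with the number of genes in brackets, red points for an adjusted p under 0.05 and a black bar for the median. The medians run from -0.50 (plastid ribosome) to 0.11 (mitochondrial ribosome), with -0.069 and -0.053 for the cytosolic subunits.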

How the data were processed

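The authors deposited 1 table per library with an FPKM value per gene, from single-end reads of 75 bases mapped to TAIR10 with a vendor pipeline. The quantification tool is not given in the sources used here. The 3 CEPDL2ox and 3 WT libraries were compared with limma 3.58.1 (R 4.3.3, intensity trend) on log2(FPKM + 1), without further scaling, over the 19597 genes that averaged 1 FPKM or more, with Benjamini-Hochberg adjustment over all of them and a call at an adjusted p under 0.05. The script was tested on simulated data. Read numbers were estimated from the values of genes seen in 1 library only, on transcripts over 600 bases, and cover counting error only. They rest on an assumed offset of 200 bases taken off each transcript length. Lengths, promoters and shared 75-base windows came from RefSeq (TAIR10.1), matched by identifier for all 217 members. Genes were named by rule: members past both limits (none was), the 10 lowest and 6 highest fold changes, the 5 highest levels, paralogues of the 10 lowest, untested members and list genes. RPS9B, RPS23B, RPL5B and the cytosolic RPL12A were added after their values were seen. The members and lists were chosen with earlier results of these data known. Alternatives changed the pseudocount, filter, scaling, trend, replicate block and libraries. The values of 1 cytosolic family stayed in all counts and fits and are not reported here by name.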

Additional observations from a re-analysis of the deposited data

How the results depend on the processing

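The count of members called lower, 4, where 2.0% of all genes were, was the least stable value. The share of all genes called lower changed with the setting too. The count was 2 with no filter on low values (1.1% of all genes) and 2 after scaling by the median of ratios (1.73%). It was 0 without the intensity trend (1.08%) and 0 to 1 when each library was left out in turn (0.505 to 0.898%). After a trend with transcript length was removed in each library it was 10 (1.92%). That setting was chosen after seeing the data. No member was called higher under any alternative. The median log2 fold change of the members was below 0 in all of them, at -0.095 to -0.048 over the other alternatives that kept all libraries, -0.14 to -0.0044 when each library was left out and -0.13 with the length trend removed. Leaving out the plastid-type members left 3 called lower and a median of -0.065.

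No sign of pairing by replicate number was seen. The correlations between the deviations of same-numbered libraries, over all genes tested, were -0.032, 0.019 and 0.00064. The labels give replicate numbers only, and whether same-numbered libraries were grown or prepared together is not known. With the replicate number as a block, 2 members were called lower (280 of all genes), and the medians were as before.

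The log2 fold changes of the following named genes, none of them called, changed sign. With quantile normalization, RPL41E had -0.24 (AT2G40205) and -0.010 (AT1G56045), RPL14B -0.025, RPL23C -0.014 and RPL11B (AT3G58700) -0.019. With equal summed FPKM, RPL27B had -0.0071 and RPL11B (AT3G58700) -0.0034. With the length trend removed, RPL41E had -0.17 (AT2G40205) and -0.013 (AT1G56045), RPL11A -0.027, RPL27B -0.029 and RPL11B (AT3G58700) -0.027. When each library was left out in turn, RPL41E ranged from -0.10 to 0.18 (AT2G40205), -0.018 to 0.28 (AT1G56045) and -0.020 to 0.38 (AT3G56020), RPL37AC from -0.21 to 0.014, RPL23C from -0.020 to 0.19, RPL27B from -0.067 to 0.061 and RPL11B (AT3G58700) from -0.031 to 0.049.

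At 3 libraries a genotype, the median standard error of a cytosolic member was 0.097 on the log2 scale, so differences of this size could not be resolved gene by gene. Among cytosolic members, 20 of 212 share over 20% of their 75-base windows with another transcript, mostly an overlapping neighbour or a paralogue, and their values depend on how such reads were assigned.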

Other observations

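The fold change of the cytosolic members went with the length of their transcripts. Across the 201 tested members, Spearman's rho between transcript length and log2 fold change was -0.34 and Pearson's r with log2 length -0.41, as a description across genes of the same 6 libraries. The 100 members longer than the median of 904 bases had a median log2 fold change of -0.092, with 74 below 0, and the 101 shorter ones had -0.026, with 58 below 0. In other genes of at least 100 FPKM the correlation had the same sign but was weaker (rho = -0.26, r = -0.21). Their fold changes lay higher: 378 of them up to 904 bases had a median of 0.11, and 1191 longer ones had -0.0037. In the short ones of these other genes CEPDL2ox replicate 2 was the highest and WT replicate 2 the lowest library, at 0.14 and -0.15 relative to the gene's mean (log2). The size of the set's shift depends on whether a length trend is removed. The cause of the trend was not tested.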
